A study of Mus musculus with 6 samples.

Results

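Interleukin-6 (IL-6) family cytokines and their receptors were followed in sorted colon stromal cells through 9 genes named by symbol, out of 24346 genes listed for each library. These were the ligand genes Il6, Il11, Lif and Clcf1, the ligand-binding receptor genes Il6ra and Il11ra1, and the signalling receptor genes Lifr, Osmr and Il6st. All 9 were present in all 6 libraries and all 9 passed the filter on low values, which asked for 3 or more libraries with an FPKM of 1 or above. FPKM is the number of fragments per kilobase of transcript, scaled to the mapped fragments of the library, so levels can be set side by side between genes.

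RNA was sequenced from 6 mice, 1 library each. Mice of the Pdgfra-cre group (3 mice, numbers 13, 23 and 25) carried 2 floxed Il10ra alleles and a cre recombinase driven by Pdgfra, a fibroblast gene. Mice of the floxed group (3 mice, numbers 8, 9 and 43) carried the same floxed alleles without cre and are titled wild type in the labels. Mice of both groups were 12 weeks old and had been given 1% dextran sulfate sodium (DSS), which injures the colonic epithelium. The sort took live Podoplanin-positive cells lacking CD45, CD31 and EpCAM from the whole colon. Cre was present in only one group, so an effect of cre itself cannot be told apart from an effect of Il10ra deletion.

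All cytokines of this family signal through gp130, the product of Il6st. IL-6 first binds its receptor chain, encoded by Il6ra, and IL-11 binds the chain encoded by Il11ra1, and each complex then engages gp130. LIF signals through a pair of gp130 and the LIF receptor, and oncostatin M in mice mainly through gp130 and the product of Osmr. Cardiotrophin-like cytokine factor 1, encoded by Clcf1, uses the ciliary neurotrophic factor receptor together with gp130 and the LIF receptor. The receptors activate JAK kinases and mainly STAT3, and SOCS3 limits the signal at gp130. In the inflamed gut, fibroblasts are a known source of IL-6 and IL-11 and respond to oncostatin M.

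The targeted gene Il10ra had an FPKM of 0 in Pdgfra-cre libraries 13, 23 and 25. In the floxed group it was 0 in libraries 8 and 9 and 0.418 in library 43, so these values do not show the deletion. The fibroblast list (Pdgfra, Pdpn, 3 collagen genes, Dcn and Lum) summed to 18969 to 19353 FPKM in Pdgfra-cre and 15802 to 19139 FPKM in floxed libraries. Pdgfra itself was lower in Pdgfra-cre libraries without overlap, at 120 to 174 FPKM against 178 to 200 FPKM in floxed libraries. The genes of the sorted-out surface markers were near 0 in the 6 libraries, at most 1.04 FPKM for Ptprc (CD45), 0.856 for Pecam1 (CD31) and 1.11 for Epcam. Pdgfra-cre library 23 stood apart, with a mean correlation of 0.950 to the other 5, where theirs were 0.960 to 0.970, and with the highest neutrophil sum, 179 FPKM. Read totals are not given in the sources used here. Low values of genes with a single annotated transcript put 1 fragment per kilobase at 0.114 to 0.135 FPKM, and the depth of the libraries, from the ratios of such values, was 0.885 to 1.04 times that of floxed library 8. These are approximate.

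The promoter windows of 3 ligand genes are shown because each holds at least 1 match to the motifs searched. Clcf1 had no window in the table. Windows run from 250 bases before to 50 bases after the annotated start site and come from RefSeq on GRCm38.p6, the mm10 assembly. Of the 9 genes, 8 had a window, and there were 11 windows in all. Capitals mark matches on either strand to GGG and TTTCC separated by NN and to GGG and TTCC separated by NNN (NF-kB, where the first is contained in the other), TTNNGCAA (C/EBP), TGANTCA (AP-1) and TTCNNNGAA (STAT).
Il6 promoter, chr5:30012864-30013163, plus strand: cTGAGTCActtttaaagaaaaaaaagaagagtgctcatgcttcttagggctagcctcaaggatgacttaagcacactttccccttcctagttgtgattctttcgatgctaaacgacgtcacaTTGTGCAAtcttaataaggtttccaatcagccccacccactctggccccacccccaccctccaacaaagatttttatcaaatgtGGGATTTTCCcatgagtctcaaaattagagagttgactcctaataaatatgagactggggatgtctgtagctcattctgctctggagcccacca
Lif promoter, chr11:4257318-4257617, plus strand: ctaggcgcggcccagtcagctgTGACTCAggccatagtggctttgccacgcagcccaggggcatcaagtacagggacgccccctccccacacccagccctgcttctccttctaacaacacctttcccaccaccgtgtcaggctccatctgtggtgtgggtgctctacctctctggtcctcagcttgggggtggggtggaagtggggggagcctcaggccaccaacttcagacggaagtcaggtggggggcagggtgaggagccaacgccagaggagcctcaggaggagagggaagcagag
Il11 promoter at the downstream start site, chr7:4778092-4778391, minus strand: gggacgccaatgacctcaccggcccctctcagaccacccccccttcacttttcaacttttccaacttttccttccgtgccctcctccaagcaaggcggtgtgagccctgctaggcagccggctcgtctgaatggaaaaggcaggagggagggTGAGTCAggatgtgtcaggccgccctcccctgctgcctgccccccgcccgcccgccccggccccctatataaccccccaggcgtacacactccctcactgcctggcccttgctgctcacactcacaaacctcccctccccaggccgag

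The Il6 window held 1 NF-kB match that satisfied both patterns, starting 44 bases before the start site, 1 C/EBP match starting 128 bases before it and 1 AP-1 match starting 249 bases before it. The Lif window held 1 AP-1 match, and so did the Il11 window shown, while the window at the other Il11 start site held none. Among the receptor genes the Osmr window held 1 AP-1 match, and the windows of Il6ra, Il11ra1, Lifr and Il6st held none of the 5 patterns. Of 32851 windows of this length in the RefSeq table, 1.63% held the first NF-kB pattern, 5.56% the other NF-kB pattern, 10.8% the C/EBP pattern, 7.81% the AP-1 pattern and 8.3% the STAT pattern. A match is a description of the letters in the window and was not tested as a binding site.

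Il6 was the most abundant of the 9 genes in every library. Its FPKM was 356, 432 and 264 in Pdgfra-cre libraries 13, 23 and 25, against 270.3, 307 and 225 in floxed libraries 8, 9 and 43. Libraries 13 and 23 lay above all floxed libraries, but library 25 lay within the floxed range. The gene (chromosome 5, 30013114 to 30019981, plus strand, mm10) lay between percentiles 98.5 and 99.2 of all listed genes in each library. Group means were 351 ± 83.8 FPKM in Pdgfra-cre and 267 ± 41.0 FPKM in floxed libraries (SD, n = 3 each). The log2 fold change on the log2(FPKM + 1) scale was 0.37 ± 0.19 (SE), with a 95% confidence interval of -0.044 to 0.79, and did not pass limma's test (adjusted p = 0.52). The exact permutation p, two-sided, was 0.3, in a design of 3 against 3 whose smallest possible p is 0.1.

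The highest Il6 value, in Pdgfra-cre library 23, coincided with the highest sums of neutrophil, leukocyte, mesothelial and epithelial markers. Of 6 neutrophil markers 5 were listed, with sums of 17.9, 179 and 10.8 FPKM in Pdgfra-cre libraries 13, 23 and 25, against 2.92, 11.0 and 1.03 FPKM in floxed libraries 8, 9 and 43. Their defining gene S100a8 was 94.7 FPKM in library 23, 6.90 to 9.42 FPKM in the other Pdgfra-cre libraries and 0 to 6.84 FPKM in floxed libraries. The neutrophil sum in library 23 was mainly S100a8 and S100a9 (63.9 FPKM). Retnlg was 17.3, Cxcr2 2.55 and Csf3r 0.668 FPKM there. The 6 general leukocyte markers summed to 43.3 FPKM in library 23, 5.61 and 10.3 FPKM in the other Pdgfra-cre libraries and 5.98 to 11.4 FPKM in floxed libraries. Mesothelial markers, 6 of 6 listed, summed to 28.0, 78.2 and 14.2 FPKM in Pdgfra-cre libraries 13, 23 and 25, against 3.09, 12.9 and 4.90 FPKM in floxed libraries 8, 9 and 43. The mesothelial sums did not overlap, and the defining gene Msln was 4.22 to 28.1 FPKM in Pdgfra-cre and 0 to 0.804 FPKM in floxed libraries. Epithelial markers, 6 of 6 listed, summed to 8.19, 25.4 and 5.61 FPKM in Pdgfra-cre libraries, against 0.173, 10.6 and 1.97 FPKM in floxed libraries. In library 23 this sum was mainly Krt8 and Krt18, at 11.5 and 12.1 FPKM, with Epcam at 1.11 and Cdh1 at 0.664 FPKM. Krt20 and Vil1 were 0 there. The part of these cells in the Il6 level was not tested. Without library 23 the Il6 log2 fold change was 0.21, and without library 25 it was 0.56, with adjusted p of 0.807 and 0.205 by limma. In bulk samples such as these, fewer cells of a type and less RNA per cell cannot be told apart.

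Il11, which encodes a cytokine made by activated fibroblasts, was far less abundant than Il6 and varied most widely in the Pdgfra-cre group. Its FPKM was 10.4, 2.83 and 4.24 in Pdgfra-cre libraries 13, 23 and 25, against 10.3, 9.0 and 4.89 in floxed libraries 8, 9 and 43. Libraries 23 and 25 lay below all floxed libraries, while library 13 was the highest of the 6. Group means were 5.82 ± 4.02 FPKM in Pdgfra-cre and 8.07 ± 2.84 FPKM in floxed libraries (SD, n = 3 each; chromosome 7, 4772373 to 4782859, minus strand). The log2 fold change was -0.51 ± 0.40 (SE), with a 95% interval of -1.42 to 0.39, and did not pass limma's test (adjusted p = 0.719). Without library 13 it was -0.96 and without library 23 it was -0.18, with limma adjusted p of 0.384 and 0.941. Smooth muscle markers, 5 of 5 listed, were lowest in library 23 too, with a sum of 129 FPKM there. Their sums were 295 and 328 FPKM in libraries 13 and 25 and 544 to 564 FPKM in floxed libraries, without overlap between the groups. Floxed library 43, with Il11 at 4.89 FPKM, had the highest smooth muscle sum, 564 FPKM. Library 13, with the highest Il11, had a lower smooth muscle sum than every floxed library. Pericyte sums were also lower without overlap, at 30.0 to 36.0 FPKM in Pdgfra-cre and 38.4 to 55.6 FPKM in floxed libraries. The defining pericyte gene Rgs5 overlapped, at 2.89 to 4.89 against 3.26 to 3.68 FPKM. The part of these cells in the levels of Il11 and the other family genes was not tested.

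Lif, a cytokine known for its action on stem cells and in inflammation, was low and even across libraries. It had 4.60, 4.75 and 3.22 FPKM in Pdgfra-cre libraries 13, 23 and 25, against 3.91, 3.24 and 3.14 FPKM in floxed libraries 8, 9 and 43 (chromosome 11, 4257557 to 4272514, plus strand). As with Il6, libraries 13 and 23 lay above all floxed libraries and library 25 did not. Its log2 fold change was 0.22 ± 0.22 (SE; 95% interval -0.28 to 0.72; limma adjusted p = 0.801).

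Clcf1 had 2.92, 1.01 and 2.67 FPKM in Pdgfra-cre libraries 13, 23 and 25, against 2.90, 4.35 and 2.74 FPKM in floxed libraries 8, 9 and 43 (chromosome 19, 4214238 to 4223490, plus strand). Library 23 was the lowest, at about 8.74 fragments per kilobase by the depth estimate, and library 13 lay within the floxed range. On the log2 scale the fold change was -0.48 ± 0.31 (SE; 95% interval -1.17 to 0.22; limma adjusted p = 0.647). It was -0.17 without library 23 and -0.32 without floxed library 9. Clcf1 shares 311 exon bases with the annotated gene AC109138.7 on the same strand, so reads there can belong to either.

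Il6 made up nearly all of the summed ligand transcripts. Its share of the FPKM sum over the 4 ligand genes was 95.2%, 98.0% and 96.3% in Pdgfra-cre libraries 13, 23 and 25, against 94.0%, 94.9% and 95.4% in floxed libraries 8, 9 and 43. The ratio of Il6 to Il11, formed within each library after the values were seen, was 34.3, 152 and 62.4 in Pdgfra-cre libraries, against 26.2, 34.1 and 46.0 in floxed libraries. The ratio was lower in Pdgfra-cre library 13 than in floxed library 43, so the groups overlapped (exact two-sided permutation p = 0.2).

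**Figure D1:**
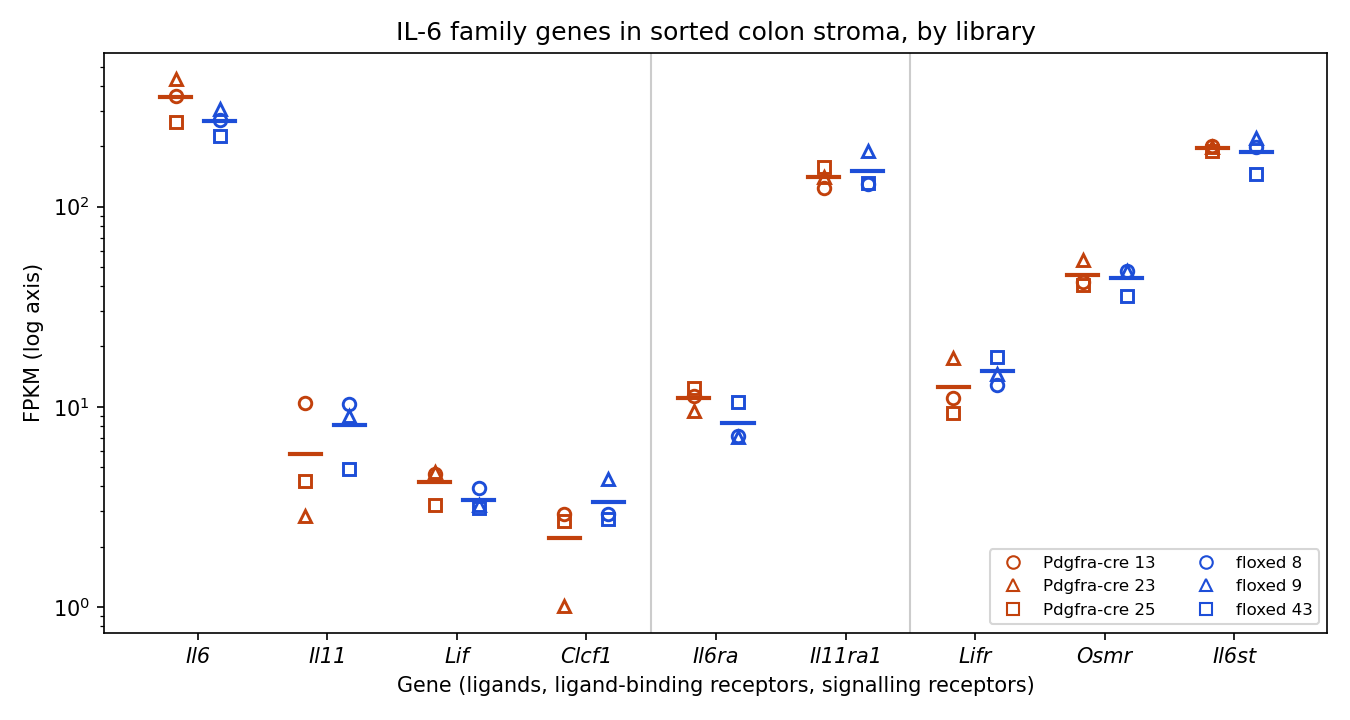
FPKM of the 9 IL-6 family genes on a log axis, with 3 Pdgfra-cre libraries left of 3 floxed libraries for each gene; each symbol is 1 library and each bar a group mean. Il6, Il6st and Il11ra1 sit above 100 FPKM in all libraries, and in no gene do the groups separate.

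Il6ra, which encodes the chain that gives a cell direct responsiveness to IL-6, was expressed at a low level in these cells. Its FPKM was 11.3, 9.52 and 12.4 in Pdgfra-cre libraries 13, 23 and 25, against 7.17, 7.08 and 10.6 in floxed libraries 8, 9 and 43 (chromosome 3, 89864059 to 89913196, minus strand). Libraries 13 and 25 lay above all floxed libraries, and library 23 lay below floxed library 43. Group means were 11.1 ± 1.46 FPKM in Pdgfra-cre and 8.27 ± 1.99 FPKM in floxed libraries (SD, n = 3 each). The log2 fold change was 0.39 ± 0.21 (SE; 95% interval -0.067 to 0.86) and did not pass limma's test (adjusted p = 0.545; exact permutation p = 0.2). In this fit it was the highest among the 9 genes, but with a pseudocount of 5 that of Il6 was higher (0.37 against 0.28). An antisense gene, Gm42809, shares 242 exon bases with Il6ra, and the library route does not mark strand. Macrophages also express IL-6 receptor. Their defining marker Adgre1 was at 0 to 0.034 FPKM in Pdgfra-cre and 0.0778 to 0.278 FPKM in floxed libraries. The 7 macrophage markers, all listed, summed to 8.29 to 12.2 FPKM in Pdgfra-cre and 11.0 to 11.9 FPKM in floxed libraries. Cd68 was the highest of them, at 4.78 to 6.14 FPKM in Pdgfra-cre and 3.76 to 6.96 FPKM in floxed libraries. The part of macrophages in the Il6ra level was not tested.

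The ratio of Il11ra1 to Il6ra, formed after the values were seen, was 11.0 to 14.8 in Pdgfra-cre and 12.4 to 26.8 in floxed libraries (exact two-sided permutation p = 0.3). Il11ra1 encodes the IL-11 binding chain. It had 124, 141 and 158 FPKM in Pdgfra-cre libraries 13, 23 and 25, against 129.9, 189.6 and 131 FPKM in floxed libraries 8, 9 and 43 (chromosome 4, 41699989 to 41769474, plus strand). Floxed library 9 was the highest and the other 5 lay between 124 and 158 FPKM. Its log2 fold change was -0.073 ± 0.17 (SE; 95% interval -0.45 to 0.30; limma adjusted p = 0.916), and it was 0.11 without floxed library 9. Mice carry close copies of this gene, and Il11ra2, Gm13305 and Gm2002 were each listed at 0 in all 6 libraries. Reads that fit several copies may have been assigned to Il11ra1, so its level is uncertain to that extent.

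Il6st, the gene of the shared chain gp130, differed little between the groups. It had 199.8, 198 and 189 FPKM in Pdgfra-cre libraries 13, 23 and 25, against 199, 221 and 145 FPKM in floxed libraries 8, 9 and 43 (chromosome 13, 112464070 to 112510086, plus strand). The 3 Pdgfra-cre values lay between the lowest and the highest floxed values. Group means were 196 ± 5.74 FPKM in Pdgfra-cre and 188 ± 39.1 FPKM in floxed libraries (SD, n = 3 each). The log2 fold change of 0.078 ± 0.15 (SE; 95% interval -0.27 to 0.42; limma adjusted p = 0.905) turned negative after rescaling to TPM, which gives every library the same summed level, at -0.019, and without floxed library 43, at -0.099. The interval corresponds to 0.831-fold to 1.34-fold.

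Osmr, which encodes the oncostatin M receptor chain, had 42.0, 54.0 and 40.5 FPKM in Pdgfra-cre libraries 13, 23 and 25, against 47.9, 47.9 and 35.6 FPKM in floxed libraries 8, 9 and 43 (chromosome 15, 6813577 to 6874969, minus strand). Library 23 was the highest and floxed library 43 the lowest. Its log2 fold change was 0.055 ± 0.17 (SE; 95% interval -0.32 to 0.43; limma adjusted p = 0.94) and turned negative after rescaling to TPM (-0.041), with array weights (-0.047), without Pdgfra-cre library 23 (-0.072) and without floxed library 43 (-0.083).

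Lifr, which encodes the LIF receptor chain and lies on chromosome 15 as Osmr does (7090614 to 7197489, plus strand), had 11.0, 17.5 and 9.32 FPKM in Pdgfra-cre libraries 13, 23 and 25, against 12.8, 14.6 and 17.8 FPKM in floxed libraries 8, 9 and 43. Libraries 13 and 25 lay below all floxed libraries and library 23 lay just under the highest floxed value. Its log2 fold change was -0.27 ± 0.24 (SE; 95% interval -0.80 to 0.26; limma adjusted p = 0.751), and it ranged from -0.52 without library 23 to -0.095 without library 25 (-0.15 without floxed library 43).

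None of the 9 genes passed limma's test at an adjusted p of 0.05, and 0 of 9 had an unadjusted p under 0.05. Over all 11429 tested genes, 0% passed at the adjusted threshold and 11.0% had an unadjusted p under 0.05, with 5.47% higher and 5.49% lower in Pdgfra-cre. Of these 1253 genes, 49.9% were higher in Pdgfra-cre, or 32.3% of 1385 after rescaling to TPM. The groups overlapped in all 9 family genes, and did not overlap in 16.4% of all tested genes. Of the 9 log2 fold changes 5 were above 0 and 4 below, with a median of 0.055, against 0.0012 over all tested genes. A p that misses the threshold does not show equal levels, and the intervals give the differences that remain compatible with the data.

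The groups separated in up to 2 of the 9 genes once a single library was left out, and these genes changed with the library. Without Pdgfra-cre library 25 they were Il6 and Lif, both higher, where 29.4% of all tested genes did not overlap. Without library 23 they were Il6ra (higher) and Lifr (lower), against 25.2% of all genes, and without library 13 they were Il11 and Clcf1, both lower, against 25.6%. Without floxed library 43 only Il6ra separated (higher, against 25.6%), and without floxed library 8 or 9 no family gene did (24.5% and 28.6%). None of these genes passed limma's adjusted threshold in these fits.

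**Figure D2:**
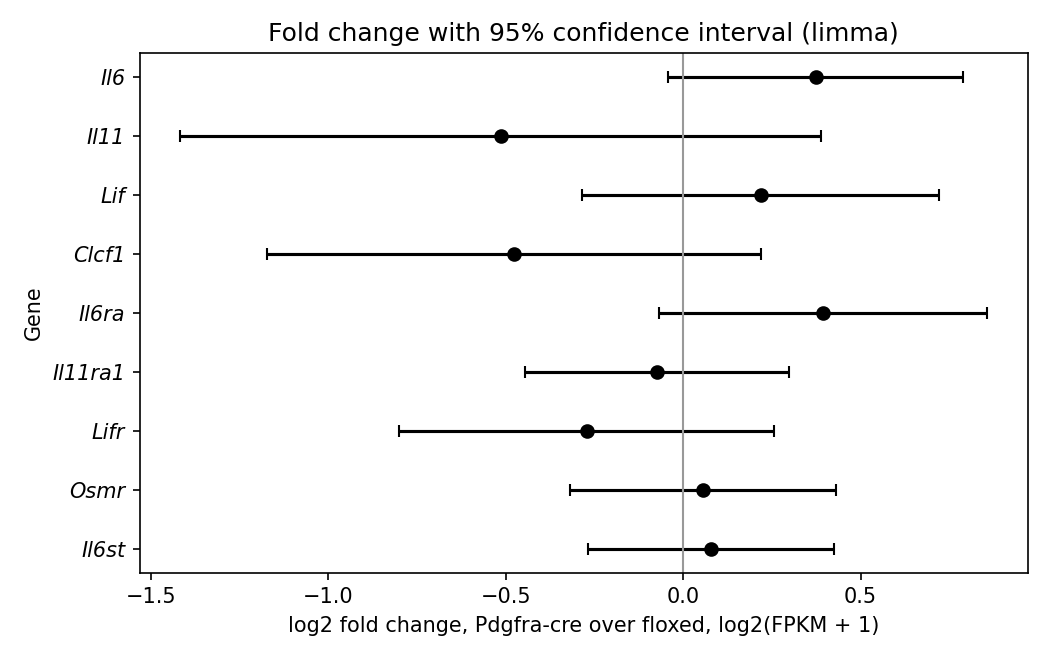
Log2 fold change of the 9 genes, Pdgfra-cre over floxed, on the log2(FPKM + 1) scale; points are limma estimates and bars 95% confidence intervals from 3 libraries a group. All 9 intervals include 0, and Il11 has the widest, from -1.42 to 0.39.

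Within libraries the order of levels was steady at the top and loose at the bottom. Il6 exceeded Il6st, Il6st exceeded Il11ra1, Il11ra1 exceeded Osmr and Osmr exceeded Lifr in 6 of 6 libraries each. The ranges over libraries overlapped between Il6st and Il11ra1, so those neighbours were told apart only within a library, where the ratio was 1.11 to 1.61. Lifr exceeded Il6ra in 4 of 6 libraries, Il6ra exceeded Il11 in 4, Il11 exceeded Lif in 5 and Lif exceeded Clcf1 in 5, and the ranges of each of these pairs overlapped.

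Il6st and Il11ra1 together made up most of the receptor transcripts. Il6st was 51.4%, 47.2% and 46.2% of the FPKM sum over the 5 receptor genes in Pdgfra-cre libraries 13, 23 and 25, against 50.2%, 46.0% and 42.6% in floxed libraries 8, 9 and 43. Il6ra was 2.90%, 2.27% and 3.04% of that sum in Pdgfra-cre libraries, against 1.81%, 1.48% and 3.11% in floxed libraries. The ratio of Il6st to Il6ra was also formed after the values were seen. It was 17.7, 20.8 and 15.2 in Pdgfra-cre libraries, against 27.8, 31.1 and 13.7 in floxed libraries (exact two-sided permutation p = 0.4). The summed receptor FPKM was 406 ± 16.2 in Pdgfra-cre and 405 ± 70.4 in floxed libraries (SD, n = 3 each).

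Which library was highest or lowest differed from gene to gene. Floxed library 43 had the lowest value of 4 genes (Il6, Lif, Osmr and Il6st) and the highest of Lifr. Pdgfra-cre library 23 had the highest value of 3 genes (Il6, Lif and Osmr) and the lowest of 2 (Il11 and Clcf1). Floxed library 9 had the highest value of Il6st, Il11ra1 and Clcf1.

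**Figure D3:**
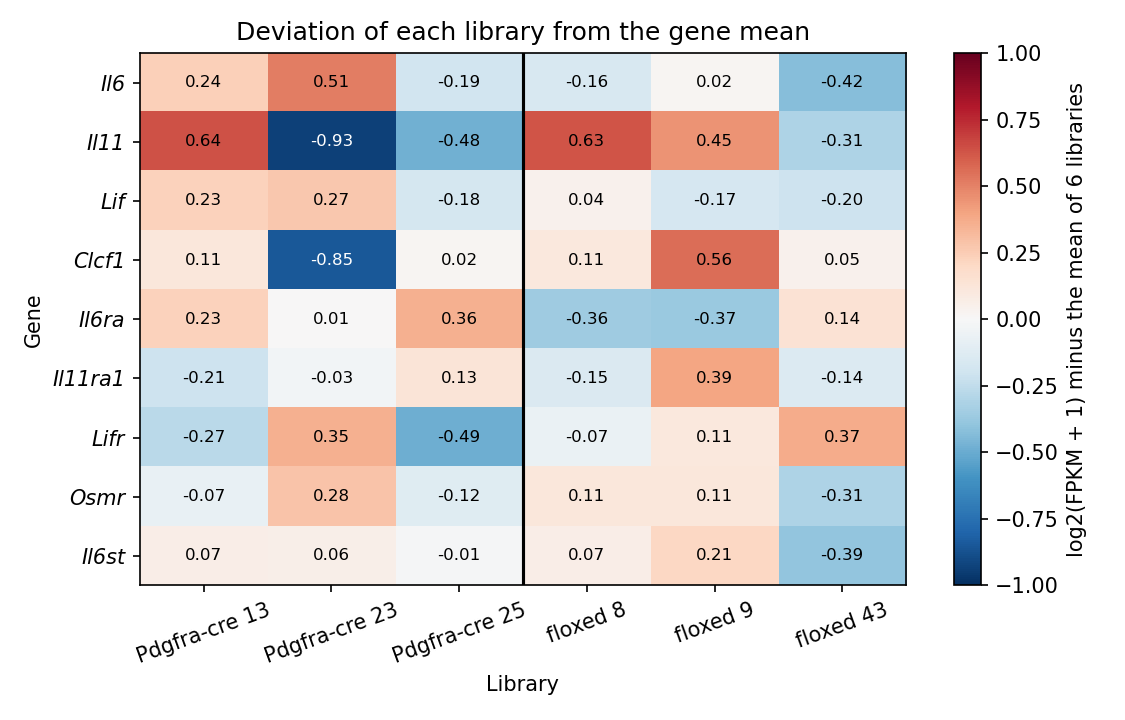
Log2(FPKM + 1) of each library minus the mean of 6 libraries for each gene, with Pdgfra-cre libraries left of the line and floxed libraries right of it. Il11 and Clcf1 are lowest in Pdgfra-cre library 23, at -0.93 and -0.85, and Il6 and Il6st are lowest in floxed library 43, at -0.42 and -0.39.

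Other cytokines and receptors that use gp130 or resemble its partners were mostly absent. Of 12 such genes 4 passed the filter, 0 passed limma's adjusted test and 1 (Ctf1) had an unadjusted p under 0.05, beside 11.0% of all tested genes, with 2 fold changes above 0, 2 below and a median of 0.11, or -0.063 without Pdgfra-cre library 25. Osm, the ligand of the receptor encoded by Osmr and a product mainly of leukocytes, had an FPKM of 0 in each of the 6 libraries. The sort took cells lacking CD45, and the leukocyte markers summed to 43.3 FPKM in library 23. The part of the sort in the Osm values was not tested. Ctf1, which encodes cardiotrophin 1, a ligand of the LIF receptor and gp130, had 3.04, 3.26 and 4.68 FPKM in Pdgfra-cre libraries 13, 23 and 25, against 1.77, 0.724 and 2.03 FPKM in floxed libraries 8, 9 and 43. The groups were separate, and the log2 fold change was 0.92 ± 0.29 (SE; limma adjusted p = 0.27). Ctf1 was the only 1 of the 4 tested genes (25%) with separate groups, beside 16.4% of all tested genes. Its levels were low, and in floxed library 9 below the filter level of 1 FPKM.

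Cntfr, which encodes the ciliary neurotrophic factor receptor used by the Clcf1 product, had 3.26 ± 1.98 FPKM in Pdgfra-cre and 4.85 ± 0.708 FPKM in floxed libraries (SD, n = 3 each; limma adjusted p = 0.613), and its lowest value, 1.33 FPKM, was in library 23.

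Of 19 genes of gp130 signalling, all tested, 0 passed limma's adjusted test and 3 had an unadjusted p under 0.05 (11.0% over all tested genes). The median log2 fold change was -0.011, with 9 above 0 and 10 below. Stat3, the main transcription factor of the pathway, had 128 ± 15.4 FPKM in Pdgfra-cre and 124.7 ± 19.6 FPKM in floxed libraries (SD, n = 3 each; log2 fold change 0.043, 95% interval -0.29 to 0.37). Socs3, its feedback inhibitor, had 178 ± 27.2 FPKM in Pdgfra-cre and 182 ± 41.8 FPKM in floxed libraries (log2 fold change -0.011, 95% interval -0.42 to 0.40). Both were abundant, and the groups overlapped in both.

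In 5 of the 19 signalling genes, or 26.3%, the groups were separate, beside the 16.4% of all tested genes. Among them were Jak2 and Socs1, higher, and Stat5a and Ptpn2, lower. Jak2, Socs1 and Stat5a are named after their values were seen. Jak2, a kinase gene, had 14.1 ± 4.91 FPKM in Pdgfra-cre and 6.66 ± 1.13 FPKM in floxed libraries (SD, n = 3 each; limma adjusted p = 0.21), and Socs1, an inhibitor gene that interferons induce, had 34.2 ± 20.3 FPKM in Pdgfra-cre and 16.1 ± 1.83 FPKM in floxed libraries (limma adjusted p = 0.339). Jak2 and Socs1 were each highest in library 23, where the neutrophil (179 FPKM), mesothelial and epithelial sums were highest too, and their part was not tested. The neutrophil sum there was mainly S100a8 and S100a9, and the epithelial sum mainly Krt8 and Krt18. Ptpn2, a phosphatase gene, had 35.3 ± 2.15 FPKM in Pdgfra-cre and 43.9 ± 6.27 FPKM in floxed libraries (limma adjusted p = 0.495).

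Of 20 genes that STAT3 is known to induce, many of them also targets of NF-kB, 0 passed limma's adjusted test and 7 had an unadjusted p under 0.05, where 11.0% of all tested genes did. The median log2 fold change was 0.15, with 12 above 0 and 8 below, and the groups were separate in 5 (25% of the list, against 16.4% of all tested genes). The median was 0.053 without floxed library 43, and after rescaling to TPM it was 0.071 and 3 genes were separate. Chosen after their values were seen, the 5 were Myc, Mcl1 and Icam1, higher, and Cebpd and Il4ra, lower. Fos, the most abundant, had 3136 ± 203 FPKM in Pdgfra-cre and 3286 ± 274 FPKM in floxed libraries (SD, n = 3 each). Saa3, a serum amyloid A gene of inflamed stroma, had 2022, 3036 and 654 FPKM in Pdgfra-cre libraries 13, 23 and 25, against 659, 1022 and 202 FPKM in floxed libraries 8, 9 and 43 (limma adjusted p = 0.378). Its library order, with 23 highest and 43 lowest, was that of Il6 at both ends. The neutrophil, mesothelial and epithelial sums (the last mainly Krt8 and Krt18) were at their highest in library 23 as well, their part untested. Cebpb, whose product binds the C/EBP motif, had 189 ± 72.2 FPKM in Pdgfra-cre and 80.2 ± 41.1 FPKM in floxed libraries (limma adjusted p = 0.27). Il4ra, a receptor gene, had 20.3 ± 1.47 FPKM in Pdgfra-cre and 25.9 ± 0.991 FPKM in floxed libraries, without overlap (limma adjusted p = 0.378).

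**Figure D4:**
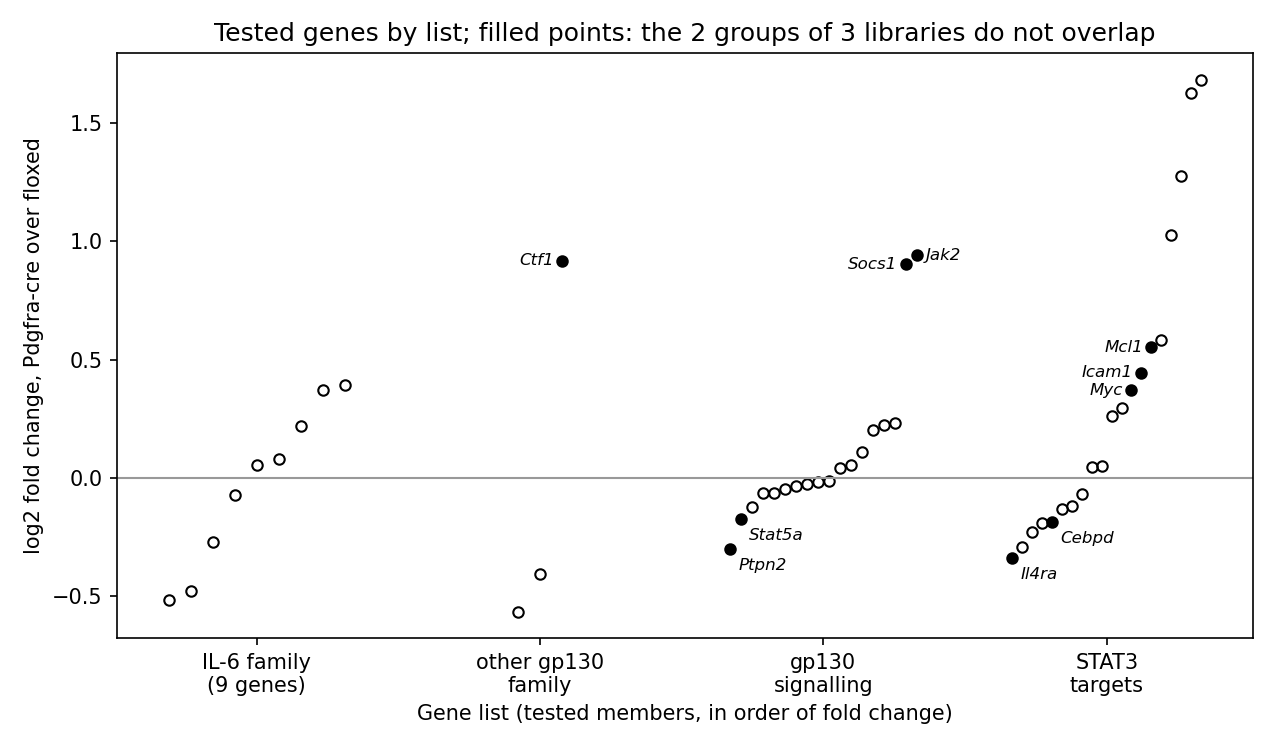
Log2 fold change, Pdgfra-cre over floxed, of tested genes in the family and 3 further lists, each point 1 gene, genes not reported here left out, and filled where the 3 Pdgfra-cre and 3 floxed libraries do not overlap. No point of the 9 family genes is filled, filled points such as Ctf1, Jak2 and Il4ra lie in the other lists, and no gene passed limma's adjusted threshold.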

How the data were processed

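Total RNA was amplified as full-length cDNA and tagmented, per the labels' protocols, which does not keep strand. The authors deposited gene-level FPKM, 1 table per library. The tools named in the submitters' processing notes are TopHat2 2.1.1, Bowtie2 2.2.8, SAMtools 0.1.18 and Cuffdiff 2.2.1, and the build is mm10. The annotation and read totals are not given in the sources used here. Log2(FPKM + 1) values were tested with limma 3.58.1 in R 4.3.3 with a variance trend, for all 11429 genes that reached an FPKM of 1 in 3 or more of 6 libraries, with Benjamini-Hochberg adjustment over all of them. Single genes were also compared with exact permutation tests. So were within-library ratios formed after the values were seen. Those not described above were Il11ra1 to Il11 and Il6 to Il6ra (exact two-sided permutation p = 0.5 and 0.9). Gene positions come from GENCODE M21 and promoters from RefSeq. The procedure was tested on simulated data with the same spread for every gene, so that test does not speak to the variation in these libraries. The genes and lists were chosen with earlier results of these data known. From the further lists, the 2 most abundant genes and the lowest p in each direction were named, except some that are not reported here. Alternatives were 2 pseudocounts (0.1 and 5), no filter or 5 FPKM, 3 scalings, 3 limma settings and leaving out each library.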

Additional observations from a re-analysis of the deposited data

How the results depend on the processing

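No family gene, and no gene of the further lists, passed limma's adjusted threshold under any of the 16 alternatives. Over all genes the count was 0 to 31 when a library was left out, with 2 without floxed library 43, 3 without Pdgfra-cre library 13 and 31 without Pdgfra-cre library 25, and 0 otherwise. The family median log2 fold change ran from -0.099 to 0.12 with a library left out, lowest without floxed library 43. The signalling median ran from -0.00087 to 0.098, and was -0.11 after rescaling to TPM, which moved the median of all genes to -0.091. With a library left out the median ran from -0.063 (without Pdgfra-cre library 25) to 0.32 for the other gp130 genes, and from 0.053 (without floxed library 43) to 0.24 for the STAT3 list. After rescaling to TPM these medians were 0.30 and 0.071. With a filter of 5 FPKM the median was 0.62 for the other gp130 genes, from 1 gene left, and 0.28 for the STAT3 list, from 18. Signs turned for Il11ra1 (-0.17 to 0.11 with a library left out, 0.014 without Pdgfra-cre library 13), Il6st (-0.099 to 0.20, and -0.019 after rescaling to TPM) and Osmr (-0.083 to 0.13, -0.041 after rescaling to TPM and -0.047 with array weights). Il6, Il11, Lif, Clcf1, Il6ra and Lifr kept their sign in every fit that tested them, with leave-one-out ranges of 0.21 to 0.56, -0.96 to -0.18, 0.14 to 0.36, -0.65 to -0.17, 0.31 to 0.56 and -0.52 to -0.095 in that order. After rescaling to TPM the groups did not overlap for Clcf1 (lower). With a library left out, genes whose groups were separate numbered 6 to 9 in the STAT3 list, 5 to 7 in the signalling list and 1 to 3 among the other gp130 genes, while their share of all tested genes was 24.5% to 29.4%. After rescaling to TPM they numbered 3 in the STAT3 list and 4 in the signalling list, with 16.97% of all tested genes. Under a filter of 5 FPKM, Lif and Clcf1 were not tested. No paired analysis was made, because the sample labels used here give no pairing of mice between the groups. The lowest values of Clcf1, Lif and Il11 stood for about 8.74, 24.1 and 24.6 fragments per kilobase, the fewest among the 9 genes.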

Other observations

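The genes most like Il6 and Il6st across the 6 libraries were sought among 7879 tested genes whose mean FPKM was 5 or more, by the root-mean-square difference of centred log2(FPKM + 1) values. Closest to Il6 were Mir22hg (difference 0.070), the ferritin heavy chain gene Fth1 (0.075) and Tnfaip6, an inflammation-induced hyaluronan-binding protein gene (0.080). Tnfaip6 had 1087, 1356 and 750.1 FPKM in Pdgfra-cre libraries 13, 23 and 25, against 794, 818 and 629 FPKM in floxed libraries 8, 9 and 43. As for Il6, libraries 13 and 23 lay above all floxed libraries and library 25 did not. Closest to Il6st were Fam207a (0.021), Dxo (0.024) and Slc33a1 (0.052), each lowest in floxed library 43. These are descriptions over 6 libraries, chosen from many genes. The genes were picked for likeness over these same libraries, so the shared library patterns follow from the choice.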
